A study of Mus musculus with 9 samples.

Results

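Blood leukocyte RNA of mice with collagen-induced arthritis was examined for 9 genes of interleukin-6 (IL-6) family signalling named by symbol, all found among the 20926 genes of the expression table: the ligands Il6 and Osm, the receptor chains Il6ra and Il6st, the kinase Jak1, the transcription factor Stat3 and the feedback inhibitors Socs3, Socs1 and Cish. All animals were male DBA/1 mice, given as 7-week-old in the labels. The paper gives that age for the division into groups, before immunization, and the age when blood was taken is not given. The Ctrl group was the control without induced arthritis or irradiation, the CIA group carried arthritis induced with chick type II collagen in complete Freund's adjuvant and a booster in incomplete adjuvant, and the CIA+THz group carried the same arthritis with the swollen ankle exposed to a 0.1 THz wave for 30 min per day over 14 days. Irradiated mice were under isoflurane, and whether the other groups were anaesthetised is not given in the sources used here. Each group had 3 libraries, and whether 1 library is 1 mouse is not given, so the p-values measure the spread between these libraries. The model is an induced inflammation of the joint, and what was sequenced is blood, not the joint.

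IL-6 binds its receptor chain (Il6ra), and the pair recruits the shared signal chain gp130 (Il6st), which oncostatin M (Osm) and the other cytokines of the family use as well. Janus kinases bound to gp130, chiefly JAK1, phosphorylate STAT3, which enters the nucleus and switches on its targets, among them Socs3, whose product binds gp130 and shuts the receptor off. SOCS1 is induced mainly by interferons and blocks Janus kinases, and CISH is a target of STAT5. In blood, IL-6 receptor is carried by neutrophils, monocytes and some T cells, gp130 by nearly all cells, and oncostatin M is made by neutrophils, monocytes and activated T cells. Most IL-6 is made outside the blood or by activated cells.

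The inhibitors and the cytokine differ in the letters around their start sites, and the stretches that hold known recognition motifs are shown because Socs1 and Il6 are the members that passed a test below. They come from RefSeq, build GRCm38.p6, are written 5′ to 3′ on the strand of the gene, and capitals mark the motif.
Socs1, chr16:10785558-10785636, minus strand, overlapping interferon response motifs: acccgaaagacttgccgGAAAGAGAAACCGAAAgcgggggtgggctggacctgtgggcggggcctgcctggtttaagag
Il6, chr5:30013054-30013113, plus strand, NF-kB motif: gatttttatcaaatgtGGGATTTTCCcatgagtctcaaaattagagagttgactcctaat
Socs3, chr11:117969502-117969531, minus strand, STAT motif TTCNNNGAA: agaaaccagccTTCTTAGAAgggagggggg
Cish, chr9:107296657-107296682, plus strand, a pair of STAT motifs TTCNNNGAA: ttTTCCTGGAAagTTCTTGGAAatct

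The STAT motif was searched as TTCNNNGAA, the interferon response motif as GAAA, any 2 bases and GAAA, and the NF-kB motif as GGG, any 2 bases and TTTCC. Each was searched on both strands of the 300 bases from 250 before to 50 after a start site, in 32851 such windows, of which 8 belong to 8 of the 9 members (not Osm). The STAT motif was in 8.30% of all windows and in 2 of the 8 member windows, those of Cish, with matches beginning at bases 1 and 12 from the start site, and of Socs3, with a match 154 bases before it. The interferon response motif was in 3.44% of all windows and in that of Socs1, where 2 matches that share letters began 83 and 77 bases before the start site. The NF-kB motif was in 1.63% of all windows and in that of Il6, beginning 44 bases before the start site. These distances are from RefSeq start sites. In the GENCODE annotation Cish begins at 107296026 and Socs3, on the minus strand, at 117970047, so by those bounds the STAT matches lie within both genes. A match describes the letters and shows no binding.

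The 9 genes spanned a wide range of levels. FPKM, fragments scaled by transcript length and sequencing depth, is a value per length, so levels of different genes can be set side by side, here after each library was divided by a scaling factor (rescaled FPKM). By the mean of the 9 libraries the order was Jak1 at 121, Socs3 at 80.2, Stat3 at 53.9, Il6ra at 22.0, Il6st at 12.8, Osm at 4.14, Socs1 at 2.80, Cish at 0.408 and Il6 at 0.184 rescaled FPKM. Neighbours in that order were separate in every library except for 3 pairs whose libraries overlapped: Jak1 with Socs3, Osm with Socs1, and Cish with Il6. The kinase, the transcription factor and the main feedback inhibitor were thus abundant, the receptor chains intermediate, and the cytokine itself was close to the lower limit of the table.

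**Figure D1:**
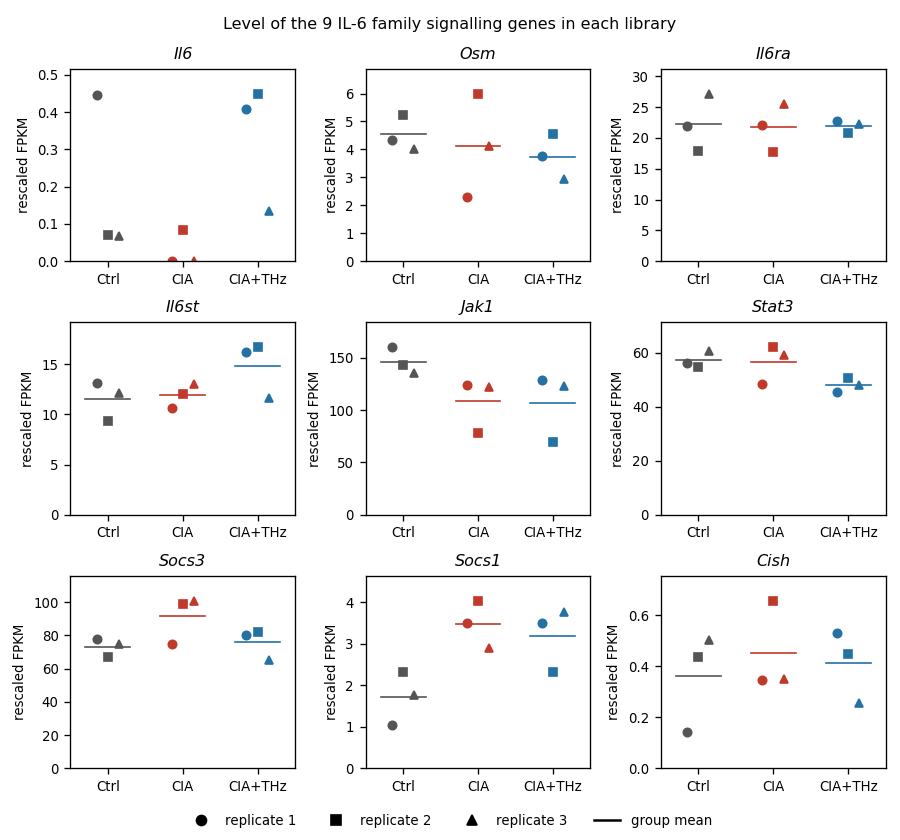
Level of each of the 9 genes in rescaled FPKM (vertical axis, from 0) in the 3 libraries of Ctrl, CIA and CIA+THz, with symbols for replicates and a line for the group mean (left out for Il6, which is listed at 0 in 2 libraries). The 3 CIA libraries of Socs1 lie above those of Ctrl, and Jak1 is lowest in CIA replicate 2 and CIA+THz replicate 2.

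A gene was called in a comparison of 2 groups when its unadjusted limma p was under 0.05 and its log2 fold change beyond 0.67 in either direction, the limits of the study's methods. The fit used all 12366 genes that averaged at least 0.1 rescaled FPKM. By this rule 1 of the 9 members was called in CIA against Ctrl (Socs1, higher), where 9.04% of all genes tested were called, 4.79% higher and 4.25% lower. In CIA+THz against CIA 1 of 9 was called (Il6, higher), against 4.54% of all genes, 2.94% higher and 1.6% lower. In CIA+THz against Ctrl 1 of 9 was called (Socs1, higher), against 7.88% of all genes, 4.64% higher and 3.24% lower. Across the 3 groups the limma F-test gave an unadjusted p under 0.05 for 1 of 9 (Socs1), against 21.3% of all genes. Counts of 1 in 9 are near these background shares. With Benjamini-Hochberg adjustment over all genes tested, limma left 0 of the 9 members under 0.05 in any comparison. At an unadjusted limma p under 0.05 there were 2 of 9 members for CIA against Ctrl, beside 17.3% of all genes tested. There was 1 for CIA+THz against CIA (13.2% of all genes) and there were 2 in CIA+THz against Ctrl (18.1%). Over all genes, the adjusted p was under 0.05 for 0.154% in CIA against Ctrl, for 0 genes in CIA+THz against CIA (1634 at an unadjusted p under 0.05), for 0.105% in CIA+THz against Ctrl and, by the F-test, for 2.53% across the 3 groups. The 3 comparisons share libraries in pairs and are not independent.

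The median log2 fold change of the 9 members stood at -0.03 in CIA against Ctrl, at -0.06 in CIA+THz against CIA and at 0.05 in CIA+THz against Ctrl, beside -0.01, 0.03 and 0.04 for all genes tested. The libraries of the 2 groups did not overlap for 2 of 9 members in CIA against Ctrl (23.5% of all genes tested), for 1 of 9 in CIA+THz against CIA (19.6%) and for 2 of 9 in CIA+THz against Ctrl (24.0%). The scaling of the libraries sets the zero of these changes: with FPKM as deposited the median of all genes tested was 0.29 in CIA+THz against CIA and all 9 members lay above 0 there, with a median of 0.21. Directions below are therefore relative to the typical gene.

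Among the ligands, Il6 was at 0.446, 0.0696 and 0.0687 rescaled FPKM in Ctrl replicates 1, 2 and 3. In CIA it was at 0.0842 in replicate 2 and listed at 0 in replicates 1 and 3. In CIA+THz it was at 0.407, 0.449 and 0.133. The 3 CIA+THz libraries were all above the 3 CIA libraries, while Ctrl replicate 1 lay within the range of CIA+THz and Ctrl replicates 2 and 3 lay within that of CIA. The fitted log2 fold change on the log2(rescaled FPKM + 0.1) scale was 1.71 ± 0.55 (SE) in CIA+THz against CIA (limma, unadjusted p = 0.0172, adjusted p = 0.285). Its size depends on the 0.1 added before the logarithm, since 2 CIA libraries are listed at 0: with 1 added it was 0.36 and the call was lost. Il6 remained called when any 1 of the 6 libraries was left out (unadjusted p from 0.00601 to 0.0496). Against Ctrl, Il6 did not pass in CIA (unadjusted p = 0.185) or in CIA+THz (unadjusted p = 0.340). The number of reads behind these values is unknown, and levels this low can rest on few reads.

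Osm was at 4.34, 5.25 and 4.03 rescaled FPKM in Ctrl, at 2.28, 5.99 and 4.14 in CIA and at 3.75, 4.54 and 2.93 in CIA+THz. The groups overlapped, and the CIA libraries alone spanned more than those of either other group. In CIA against Ctrl the log2 fold change was -0.22 with a 95% interval of -1.07 to 0.62, and in CIA+THz against CIA it was -0.06 with an interval of -0.94 to 0.82. Changes past the fold limit lie within both intervals, so these libraries do not exclude them.

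The receptor chains did not pass in any comparison. Il6ra, the ligand-binding chain, was at 21.9, 17.9 and 27.1 in Ctrl, at 22.1, 17.7 and 25.5 in CIA and at 22.8, 20.8 and 22.3 in CIA+THz. Its group means, 22.3, 21.8 and 21.9 rescaled FPKM, differed by less than the spread within Ctrl or CIA. The 95% intervals of its log2 fold change were -0.50 to 0.45 for CIA against Ctrl, -0.33 to 0.38 for CIA+THz against CIA and -0.38 to 0.38 in CIA+THz against Ctrl, all inside the fold limit.

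Il6st, the gp130 chain, was at 13.1, 9.36 and 12.2 in Ctrl, at 10.7, 12.1 and 13.02 in CIA and at 16.2, 16.7 and 11.6 in CIA+THz. CIA+THz replicates 1 and 2 were above all other libraries, while replicate 3 lay among them. Its log2 fold change in CIA+THz against CIA was 0.30 ± 0.17 (SE), with an interval of -0.11 to 0.71 (limma, unadjusted p = 0.128). The ratio of Il6ra to Il6st within a library, taken after 0.1 was added to each rescaled value, stood on the log2 scale at 0.94 ± 0.21 in Ctrl, at 0.85 ± 0.27 in CIA and at 0.58 ± 0.32 in CIA+THz (SD, n = 3 each). Exact two-sided permutation tests gave p = 0.7 for CIA against Ctrl, p = 0.2 for CIA+THz against CIA and p = 0.3 for CIA+THz against Ctrl, in a family of 9 such tests in which 3 against 3 libraries cannot go below p = 0.1 and every adjusted p was at least 0.6.

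Jak1, the kinase, was at 160, 143 and 135 rescaled FPKM in Ctrl, at 124, 78.5 and 123 in CIA and at 129, 69.7 and 123 in CIA+THz. Both arthritis groups lay below all Ctrl libraries, and within each of them replicate 2 was far lower than the other two. Its log2 fold change was -0.46 ± 0.19 (SE) in CIA against Ctrl (limma, unadjusted p = 0.0484, adjusted p = 0.285), short of the fold limit. It was -0.49 ± 0.23 (SE) in CIA+THz against Ctrl (unadjusted p = 0.0681, adjusted p = 0.315), and these contrasts share the Ctrl libraries. Without 1 library it ranged from -0.57 to -0.24 in CIA against Ctrl, and the value nearest to 0 was the one without CIA replicate 2. Exons of Jak1 overlap those of Raver2 on the other strand, and the strand used in counting is not given in the sources used here.

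Stat3 was at 56.2, 54.8 and 60.7 in Ctrl, at 48.3, 61.9 and 59.0 in CIA and at 45.3, 50.7 and 48.0 in CIA+THz. The CIA+THz libraries were all below Ctrl, and CIA replicate 1 lay among them. The log2 fold change in CIA+THz against Ctrl was -0.25 ± 0.10 (SE), with an interval of -0.48 to -0.03 (limma, unadjusted p = 0.0314, adjusted p = 0.233), inside the fold limit, and with FPKM as deposited it was 0.05. In CIA against Ctrl the value was -0.03 with an interval of -0.33 to 0.27. Exons of Stat3 and Stat5a overlap on opposite strands.

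Among the feedback inhibitors, Socs3 was at 77.7, 67.2 and 74.7 rescaled FPKM in Ctrl, at 74.6, 98.9 and 101 in CIA and at 80.0, 82.3 and 65.5 in CIA+THz. CIA replicates 2 and 3 were above all other libraries, and CIA replicate 1 was within the range of Ctrl. Its log2 fold change was 0.31 ± 0.15 (SE) in CIA against Ctrl (limma, unadjusted p = 0.0711) and -0.26 ± 0.15 in CIA+THz against CIA (unadjusted p = 0.130), neither past the test. Set against Stat3 in the same library, the log2 ratio of Socs3 stood at 0.35 ± 0.10 in Ctrl, at 0.69 ± 0.07 in CIA and at 0.65 ± 0.19 in CIA+THz (SD, n = 3 each). The CIA and Ctrl ratios did not overlap, at an exact two-sided permutation p = 0.1, the smallest that 3 against 3 allows, and an adjusted p of 0.6 over the 9 ratio tests. By GC content Socs3 stood at percentile 93.9 and Stat3 at percentile 65.5 of the genes with a mean of at least 1, and the ratio was not corrected for GC.

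Socs1 was at 1.05, 2.33 and 1.77 in Ctrl, at 3.49, 4.03 and 2.90 in CIA and at 3.49, 2.33 and 3.78 in CIA+THz. All CIA libraries were above all Ctrl libraries, and CIA+THz replicate 2 was level with Ctrl replicate 2. Its mean stood at 1.72 ± 0.64 in Ctrl, at 3.47 ± 0.56 in CIA and at 3.20 ± 0.77 in CIA+THz (SD, n = 3 each). The log2 fold change was 1.03 ± 0.35 (SE) in CIA against Ctrl (limma, unadjusted p = 0.0217, adjusted p = 0.213) and 0.90 ± 0.36 in CIA+THz against Ctrl (unadjusted p = 0.0380, adjusted p = 0.247). Irradiated and untreated arthritis did not differ past the test, with a log2 fold change of -0.13 and an interval of -0.74 to 0.48.

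In CIA against Ctrl the Socs1 call was lost without Ctrl replicate 1 (log2 fold change 0.73), without CIA replicate 1 (1.02) or without CIA replicate 2 (0.92), each past the fold limit with an unadjusted limma p of at most 0.0753. In CIA+THz against Ctrl it was lost without Ctrl replicate 1 (0.60), Ctrl replicate 3 (0.95), CIA+THz replicate 1 (0.82) or CIA+THz replicate 3 (0.77). The first of these was under the fold limit, and the unadjusted limma p reached at most 0.127. The Socs1 transcript has a GC content of 58.8%, above 94.2% of the genes with a mean of at least 1, and in CIA against Ctrl the 3212 genes highest in GC had a median log2 change of 0.18 and the 3213 lowest in GC one of -0.22. After a correction for GC, chosen after seeing the data, Socs1 was at 0.81 in CIA against Ctrl (limma, unadjusted p = 0.0479) and at 0.76 in CIA+THz against Ctrl (unadjusted p = 0.0632), so the second call was lost.

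Cish was at 0.142, 0.437 and 0.504 in Ctrl, at 0.345, 0.656 and 0.352 in CIA and at 0.532, 0.448 and 0.256 in CIA+THz. The groups overlapped throughout, and the 95% interval in CIA against Ctrl ran from -0.98 to 1.61, wide enough to hold changes past the fold limit in both directions. Exons of Cish overlap an antisense gene and a pseudogene.

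**Figure D2:**
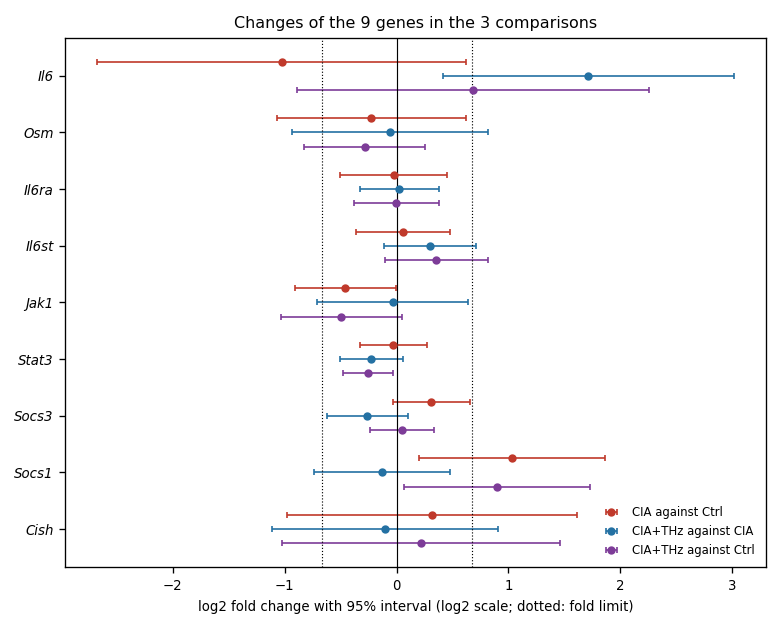
Log2 fold change of each of the 9 genes (horizontal axis, points) with its 95% interval (bars) for CIA against Ctrl, for CIA+THz against CIA and for CIA+THz against Ctrl, with dotted lines at the fold limit of 0.67. The intervals of Socs1 in both contrasts with Ctrl and of Il6 in CIA+THz against CIA lie above 0, and those of Il6ra lie within the fold limit in all 3 comparisons.

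The genes whose pattern over the 9 libraries was closest to a member, by the root mean square difference of centred log2 values among 9741 genes with a mean of at least 1, were Cuedc2 for Socs1 (0.19), Loxl1 for Jak1 (0.19), Sorl1 for Stat3 (0.06), Emilin2 for Socs3 (0.08), Flad1 for Il6ra (0.09), Urb2 for Il6st (0.11) and Abtb2 for Osm (0.16). These values describe 9 libraries and carry no test.

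The rest of the pathway was read from 7 lists of 58 genes, all in the table, of which 53 were tested. Those called were 0 higher and 3 lower for CIA against Ctrl, where 9.04% of all genes tested were called. They were 1 higher and 1 lower for CIA+THz against CIA (4.54% of all genes), and 1 higher and 2 lower in CIA+THz against Ctrl (7.88%). The pathway genes were thus called no more often than all genes tested. Of the other cytokines of the family, Il11 and Il31 were listed at 0 in every library and Ctf1 was too low to be tested, which left 5 of 8. Of the other receptor chains 5 of 6 were tested, not Cntfr, and Il31ra, with a mean of 0.252, is the called gene not described further.

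**Figure D3:**
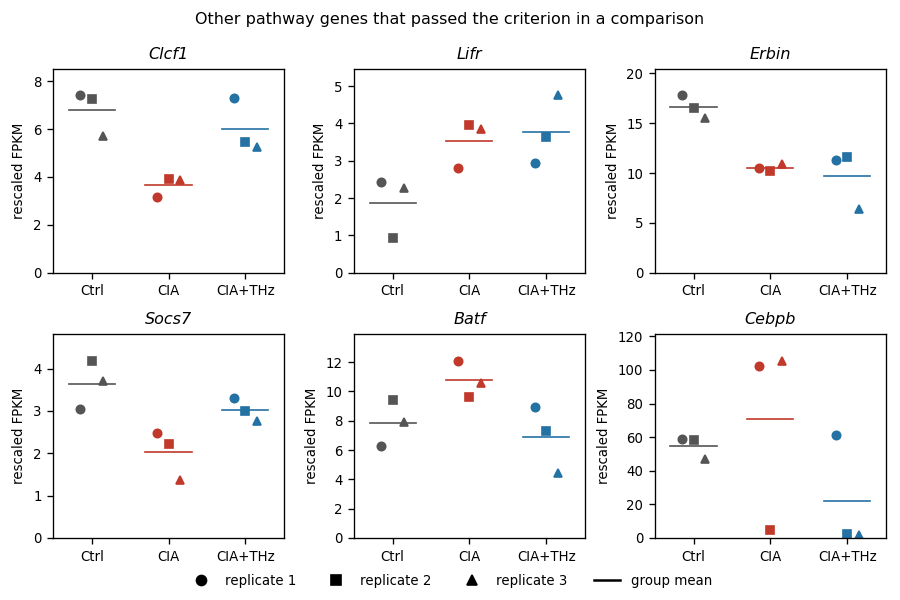
Level in rescaled FPKM (vertical axis, from 0) of the 6 other pathway genes with a mean of at least 1 that were called in a comparison, in the 3 libraries of each group, with a line for the group mean. Clcf1 is lowest in the 3 CIA libraries, Lifr lowest in the 3 Ctrl libraries, and Cebpb runs from 1.52 to 61.6 within CIA+THz.

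Clcf1, a gp130 cytokine that signals through the CNTF receptor, fell in CIA and was higher again in CIA+THz. It was at 7.40, 7.25 and 5.72 in Ctrl, at 3.16, 3.93 and 3.89 in CIA and at 7.28, 5.47 and 5.26 in CIA+THz. The CIA libraries were below all others. The log2 fold change was -0.87 ± 0.21 (SE) in CIA against Ctrl (limma, unadjusted p = 0.00429, adjusted p = 0.121) and 0.69 ± 0.20 in CIA+THz against CIA (unadjusted p = 0.0111, adjusted p = 0.265), contrasts that share the CIA libraries. The first held when any 1 library was left out, and the second dropped under the fold limit without CIA replicate 1 (0.59) or CIA+THz replicate 1 (0.55).

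Lifr, the leukemia inhibitory factor receptor that pairs with gp130, was at 2.44, 0.922 and 2.28 in Ctrl, at 2.80, 3.95 and 3.86 in CIA and at 2.94, 3.62 and 4.75 in CIA+THz. Every arthritis library was above every Ctrl library. The log2 fold change in CIA+THz against Ctrl was 1.05 ± 0.40 (SE; limma, unadjusted p = 0.0332, adjusted p = 0.237), and the call was lost without Ctrl replicate 2 (0.63), CIA+THz replicate 2 (1.07) or CIA+THz replicate 3 (0.88). Erbin, a scaffold protein known to restrain STAT3, was at 17.8, 16.6 and 15.5 in Ctrl, at 10.5, 10.2 and 10.9 in CIA and at 11.3, 11.6 and 6.35 in CIA+THz. Both arthritis groups were below Ctrl, and the call was in CIA+THz against Ctrl, with a log2 fold change of -0.81 ± 0.24 (SE; limma, unadjusted p = 0.0104, adjusted p = 0.159). Without CIA+THz replicate 3 it was -0.53, under the fold limit, and in CIA against Ctrl, where it was not called, it was -0.65. By GC content Erbin stood at percentile 5.06 of the genes with a mean of at least 1. The 3213 genes lowest in GC had a median log2 change of -0.08 in CIA+THz against Ctrl and of -0.22 in CIA against Ctrl. The shedding protease Adam17, which frees soluble IL-6 receptor, and Adam10 were not called in any comparison.

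None of the other Janus kinases was called, 0 of 3 in each comparison. Values of Jak2 and Tyk2 are given after they were seen: Jak2, like Jak1, lay below Ctrl in every arthritis library, with a log2 fold change of -0.46 in CIA against Ctrl (limma, unadjusted p = 0.0125), and Tyk2 lay above Ctrl in every arthritis library, with 0.34 (unadjusted p = 0.0383), with adjusted p-values of 0.180 and 0.260. By GC content Jak2 stood at percentile 23.0 and Tyk2 at percentile 88.0 of the genes with a mean of at least 1. In CIA against Ctrl the 3213 genes lowest in GC had a median log2 change of -0.22 and the 3212 highest one of 0.18. After the GC correction the median of the 3 other Janus kinases there was 0.03, beside 0.27 before it. Of the 5 other STAT genes tested (Stat2, Stat4, Stat5a, Stat5b and Stat6), limma called 0 in each comparison, with 1 gene at an unadjusted p under 0.05 for CIA against Ctrl, 0 for CIA+THz against CIA and 1 for CIA+THz against Ctrl. That gene was Stat2, a STAT of type I interferon signalling, named after its values were seen, with a log2 fold change of 0.49 in CIA against Ctrl (unadjusted p = 0.0228, adjusted p = 0.216) and of 0.50 in CIA+THz against Ctrl (unadjusted p = 0.0109, adjusted p = 0.162).

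Of 13 other negative regulators (SOCS, PIAS and phosphatase genes) 1 was called. Socs7 was at 3.04, 4.19 and 3.71 in Ctrl, at 2.49, 2.22 and 1.36 in CIA and at 3.31, 3.00 and 2.76 in CIA+THz, with the CIA libraries below both other groups. In CIA against Ctrl its log2 fold change was -0.85 ± 0.31 (SE; limma, unadjusted p = 0.0297, adjusted p = 0.237). The call was lost without Ctrl replicate 2 (-0.75), Ctrl replicate 3 (-0.83) or CIA replicate 3 (-0.60), of which the last was inside the fold limit, and the unadjusted limma p reached at most 0.0896. Socs1 and Socs7 thus moved in opposite directions in CIA, each on unadjusted p-values.

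Of 20 textbook STAT3 targets 19 were tested, all but Il10. None was called in CIA against Ctrl by limma, beside 9.04% of all genes tested. There 0 of 19 also had an unadjusted limma p under 0.05, beside 17.3% of all genes. The median log2 fold change was -0.15, beside -0.01 for all genes tested. In CIA+THz against CIA 17 of 19 lay below 0, with a median of -0.40 beside 0.03 for all genes tested, of which 46.8% lay below 0. At an unadjusted limma p under 0.05 there were 6 targets, all lower, beside 13.2% of all genes tested, and 1 was called (Batf) beside 4.54% of all genes. In CIA+THz against Ctrl 18 of 19 lay below 0, with a median of -0.42 beside 0.04, and 9 lower targets had an unadjusted limma p under 0.05 beside 18.1% of all genes tested. Of them 1 was called (Cebpb), beside 7.88% of all genes. These contrasts share the CIA+THz libraries. With FPKM as deposited 10 of 19 lay below 0 in CIA+THz against CIA, with a median of -0.13 beside 0.29 for all genes tested, and after the GC correction 17 of 19 with a median of -0.32 beside -0.01. Dividing a library by 1 factor shifts the targets and the typical gene almost alike, so FPKM as deposited could not test the distance between them. It changed the count below 0. The GC correction could change that distance. After it the targets stood nearer to the typical gene in CIA+THz against CIA. In CIA+THz against Ctrl they stood slightly farther from it, with a median of -0.50 beside -0.01 for all genes tested.

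**Figure D4:**
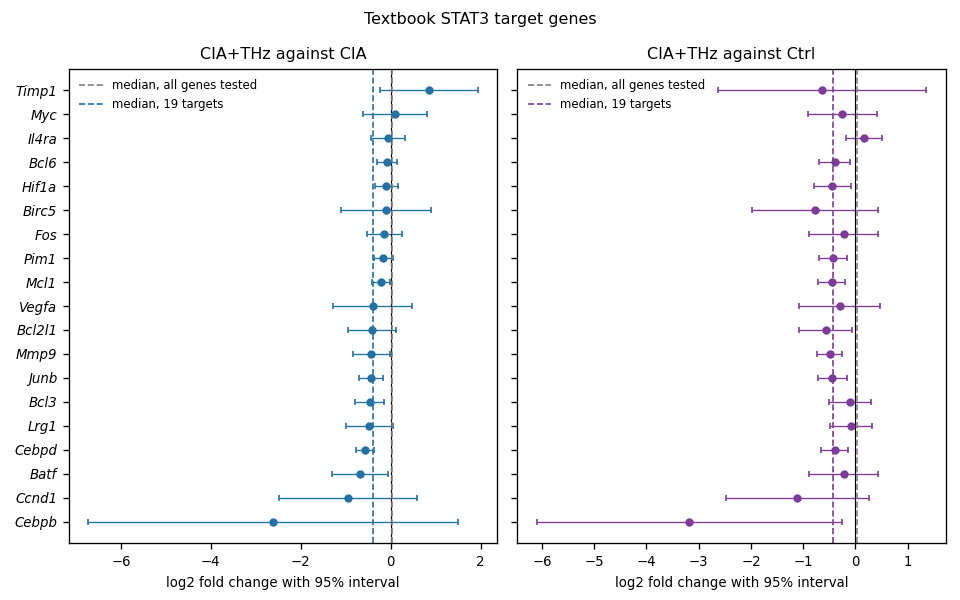
Log2 fold change (horizontal axis, points) with its 95% interval (bars) of the 19 tested STAT3 targets in CIA+THz against CIA (left) and CIA+THz against Ctrl (right), with dashed lines at the median of the 19 targets and of all genes tested. Most points lie left of 0 in both panels, with medians of -0.40 and -0.42, the intervals of 6 and of 9 targets exclude 0, and the interval of Cebpb is the widest in CIA+THz against CIA.

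Batf, a transcription factor of T and B cells, was at 6.30, 9.39 and 7.94 in Ctrl, at 12.1, 9.60 and 10.6 in CIA and at 8.93, 7.31 and 4.46 in CIA+THz. The CIA libraries were the highest, and the log2 fold change in CIA+THz against CIA was -0.68 ± 0.26 (SE; limma, unadjusted p = 0.0362, adjusted p = 0.346). The call held in 1 of 6 fits that leave out a library, the one without CIA+THz replicate 1, with values from -0.90 to -0.40 over the 6, of which those without CIA replicate 1 (-0.60) and without CIA+THz replicate 3 (-0.40) were inside the fold limit. Cebpb, a transcription factor of myeloid cells, was at 59.1, 58.0 and 46.9 in Ctrl, at 102, 4.56 and 106 in CIA and at 61.6, 2.08 and 1.52 in CIA+THz. Libraries of 1 group thus stood far apart, and the groups overlapped. The log2 fold change in CIA+THz against Ctrl was -3.18 ± 1.25 (SE; limma, unadjusted p = 0.0366, adjusted p = 0.243). It stayed between -4.86 and -2.23 in the 6 fits that leave out a library, and the call was lost in 5 of them, all but the one without CIA+THz replicate 1, through an unadjusted limma p that reached at most 0.146. By GC content Batf stood at percentile 86.6 and Cebpb at percentile 99.9 of the genes with a mean of at least 1. The 3212 genes highest in GC had a median log2 change of -0.10 in CIA+THz against CIA and of 0.11 in CIA+THz against Ctrl. Cebpd, named after its values were seen, was at 233, 232 and 224 in CIA and at 165, 152 and 147 in CIA+THz. That is a log2 difference of -0.57 ± 0.08 (SE; limma, unadjusted p = 0.000272, adjusted p = 0.172), inside the fold limit.

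Marker lists of blood cell types moved with these groups, and in bulk RNA fewer cells of a type cannot be told apart from less RNA per cell. The 10 neutrophil markers summed to 12699-21408 rescaled FPKM in Ctrl, to 14459-18755 in CIA and to 10735-12233 in CIA+THz. In CIA+THz against CIA 10 of 10 lay below 0, with a median log2 fold change of -0.35. Also below 0 there were 7 of 7 platelet markers (median -0.41), 9 of 10 monocyte markers (-0.24) and 5 of 6 red cell precursor markers (-0.25). Above 0 were 9 of 9 T cell markers (0.33), 8 of 10 B cell markers (0.27) and 6 of 7 NK cell markers (0.51). The 10 monocyte markers summed to 674-698 in Ctrl, to 979-1084 in CIA and to 791-845 in CIA+THz. In CIA against Ctrl 5 of the 10 were called higher, as was 1 of 10 B cell markers, beside 4.79% of all genes tested. Called lower there were 3 of 7 NK cell markers and 1 of 10 neutrophil markers, beside 4.25%. The 9 T cell markers in the table summed to 328-380, 273-294 and 333-455, the 10 B cell markers to 519-625, 557-728 and 663-867, and the 7 NK cell markers to 152-199, 63.0-138 and 103-161 in Ctrl, CIA and CIA+THz, respectively. No marker of these lists was at 0 in any library. Although the labels give the samples as leukocytes, the red cell gene Alas2 alone took 11.4% to 16.7% of the FPKM of a library, and 6 red cell precursor markers summed to 82520-128353 in Ctrl, to 100352-114902 in CIA and to 55968-78292 in CIA+THz. Alas2 makes up most of that sum, and 5 of the 6 markers lay below 0 in CIA against Ctrl, with a median log2 fold change of -0.44. The 7 platelet markers summed to 4389-5417, 4155-5126 and 3474-4174. In CIA+THz against Ctrl 9 of 10 neutrophil markers lay below 0 (median -0.67). So did 6 of 6 red cell precursor (-0.72), 7 of 7 NK cell (-0.37) and 7 of 7 platelet markers (-0.27). Above 0 there were 10 of 10 B cell (0.53), 7 of 10 monocyte (0.64) and 5 of 9 T cell markers (0.06). The part of cell composition in the changes of the members, of the STAT3 targets and of the other pathway genes was not tested.

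**Figure D5:**
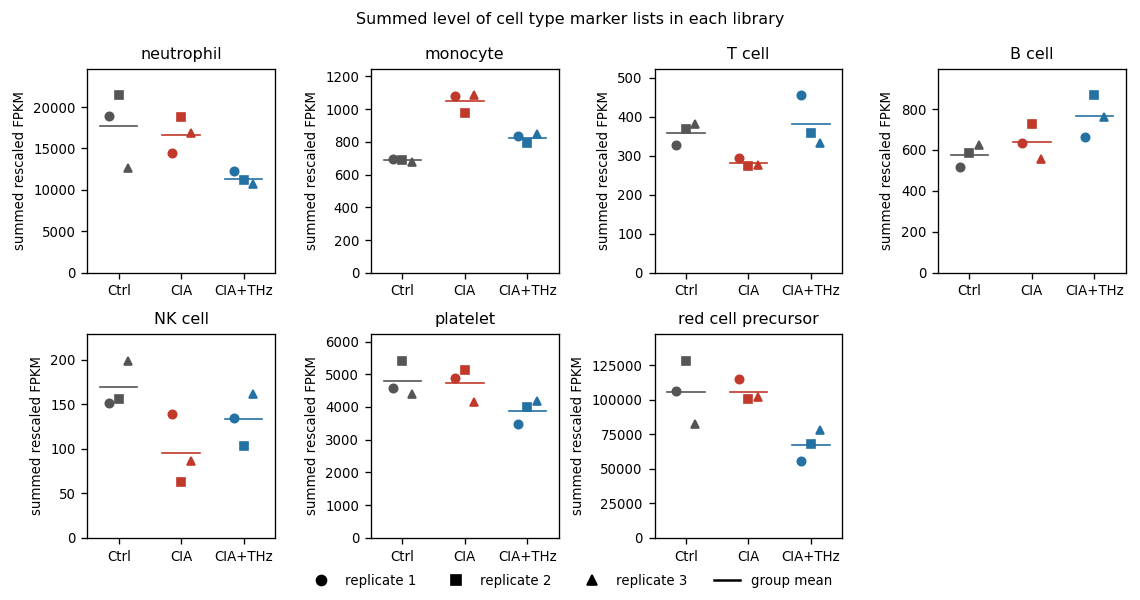
Summed rescaled FPKM (vertical axis, from 0) of 7 lists of cell type markers in the 3 libraries of each group, with a line for the group mean. The neutrophil and red cell precursor sums are lowest in the 3 CIA+THz libraries, and the monocyte sum is highest in the 3 CIA libraries.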

How the data were processed

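The authors sequenced blood RNA of 9 libraries in paired-end mode on an Illumina HiSeq instrument and deposited FPKM values for 20926 genes by symbol. The submitters' processing notes name bcl2fastq 2.0, HISAT2, StringTie, DESeq2 and mm10, without roles, and strand and annotation are not given in the sources used here. The deposited FPKM hold no read counts: low values were whole multiples of a step for 15.6% to 17.9% of genes at best, where a tolerance of 0.05 alone gives 10%, so the depth of each library is unknown and no counting interval was computed.

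Groups came from the sample labels. Each library was divided by its median-of-ratios factor (0.847 to 1.24) over the 10312 genes above 0 in all libraries. Genes with a mean of at least 0.1 were tested on log2(rescaled FPKM + 0.1) with limma 3.58.1 (R 4.3.3; lmFit, eBayes with a trend), each pair of groups on its 6 libraries, with Benjamini-Hochberg adjustment over the 12366 genes tested. Fold changes of low genes are understated on this scale. Ratios of members within a library, with 0.1 added to each value, were compared with exact permutation tests (SciPy 1.17.1). The script was tested on simulated data. GC content is that of the longest GENCODE vM21 transcript of a symbol. Genes outside the members were named when they had a mean of at least 1 and were called in a comparison. The members and gene lists were chosen with earlier results of these data known. Alternatives were other scalings, pseudocounts, filters, variance models, a replicate block, leaving out each library and, chosen after seeing the data, the GC correction. Some pathway genes are not reported here.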

Additional observations from a re-analysis of the deposited data

How the results depend on the processing

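Alternatives changed no called direction. Of 426 alternative values of the 27 member fold changes, 373 kept direction and side of the criterion, 15 lost the call and 38 changed sign, all of the latter uncalled. With the adjusted p the members called were 0 in each comparison, and the genes called were 19 for CIA against Ctrl, 0 for CIA+THz against CIA, 13 for CIA+THz against Ctrl and 313 across the 3 groups. Members called in CIA+THz against CIA were 0 with pseudocount 1 and 0 with a mean of at least 1, which removes Il6. In CIA+THz against Ctrl they were 0 with pseudocount 1, with no filter, with the GC correction and with the replicate block. Across the 3 groups they were 2 with FPKM as deposited, with no filter, with no variance trend and with the replicate block. All genes called in CIA+THz against CIA were 1199 with FPKM as deposited and 283 with pseudocount 1, and in CIA+THz against Ctrl 1720 with FPKM as deposited. The causes were not tested.

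FPKM as deposited changed the sign of log2 fold changes in CIA against Ctrl for Il6ra (0.00196) and Stat3 (0.00119), in CIA+THz against CIA for Osm (0.21), Stat3 (0.0515), Socs3 (0.0159), Jak1 (0.24), Socs1 (0.14) and Cish (0.13), and in CIA+THz against Ctrl for Il6ra (0.30), Osm (0.0153) and Stat3 (0.0527). Scaling to 8 leukocyte genes did so in CIA+THz against CIA for Osm (0.0399) and Jak1 (0.0660) and in CIA+THz against Ctrl for Il6ra (0.0453), and the GC correction in CIA+THz against Ctrl for Socs3 (-0.0938).

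Leaving out 1 library gave 0 to 1 members called for CIA against Ctrl, 0 to 1 in CIA+THz against Ctrl and 0 to 3 across the 3 groups, and 724 to 1487 genes called in CIA+THz against Ctrl, the highest without Ctrl replicate 3. Signs of uncalled changes turned in CIA against Ctrl for Il6ra (-0.18 to 0.12), Il6st (-0.0877 to 0.15), Osm (-0.54 to 0.14), Stat3 (-0.0996 to 0.0792) and Cish (-0.0938 to 0.57), in CIA+THz against CIA for Il6ra (-0.12 to 0.15), Osm (-0.42 to 0.25), Jak1 (-0.25 to 0.25), Socs1 (-0.26 to 0.0748) and Cish (-0.27 to 0.15), and in CIA+THz against Ctrl for Il6ra (-0.15 to 0.15), Socs3 (-0.0135 to 0.15) and Cish (-0.19 to 0.47).

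Over the genes tested, no pairing of libraries by replicate number was seen: deviations from group means of same-numbered libraries correlated at -0.05 to 0.03, with 0 of 9 pairs over 0.1. Such a correlation over many genes does not test single genes, and Jak1 was lowest in replicate 2 of both arthritis groups. With the replicate block 1073, 506 and 967 genes were called in the 3 comparisons, and Socs7 in CIA against Ctrl and Socs1 in CIA+THz against Ctrl were no longer called.

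With 3 libraries a group and unknown depth, small changes of Il6, Cish and Osm were not detectable.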
